A study of Mus musculus with 8 samples.

Results

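The 44 genes described here copy DNA during S phase, the part of the cell cycle in which the genome is duplicated. They were chosen by symbol from textbook roles, with earlier results of these data known. All 44 were found among the 18473 genes of the deposited table. Expression was measured by RNA sequencing in 8 mouse cell libraries, of which 4 carry EXO and 4 carry LPS in their titles. According to the design text, macrophages were given ADSC-Exos, commonly short for vesicles shed by adipose-derived stem cells (exosomes). LPS is the common short form of lipopolysaccharide, from the outer membrane of bacteria, which triggers inflammatory responses in macrophages. Doses, durations and any LPS given to the EXO cells are not stated in the labels. They also do not say whether replicates were separate cultures, so p-values measure only the spread of these libraries, possibly a technical one. Untreated cells are not analysed here. The labels name lung tissue and MLE-12, a line of mouse lung epithelium, under a different catalogue number in each library. No genetic modification is given for either group.

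The markers analysed fitted the macrophages of the design text more than the epithelial label, which they fitted only in part. A mean of 1 FPKM or more was reached by 14 of 15 macrophage markers (fragments scaled to gene length and library depth), while none of the 3 general epithelial markers that were analysed reached it, and the other 10 of the 13 listed, such as Epcam and the keratins, were not analysed here. Of 4 alveolar type 2 markers, Napsa, Abca3 and Etv5 reached it and Lamp3 did not. The highest mean among them was 57.5 FPKM, for Napsa in LPS, against 9969 for the macrophage marker Lyz2 in LPS. The tight junction gene Ocln was listed at 0 throughout EXO and averaged 0.00582 ± 0.0116 FPKM in LPS, and surfactant protein genes were not analysed here. Library depth over the genes of the table ran from 37014760 to 40591444 fragments, and each replication gene rested on 240 to 23696 fragments in any library. Along the first principal component the groups lay apart, and LPS replicate 4, at 23.9, lay nearer to EXO than the other LPS libraries, at 35.4 to 42.8.

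Replication is prepared in G1, when the origin recognition complex, Cdc6 and Cdt1 load the ring-shaped Mcm2 to Mcm7 helicase onto origins. In S phase Cdc45 and the GINS complex switch the helicase on, polymerases extend primers, the sliding clamp PCNA tethers them to DNA, and nucleotide synthesis, histone deposition and DNA methylation run alongside. E2F transcription factors, held back in resting cells by RB family proteins, drive many of these genes, among them the cyclins E that push cells into S phase. Differentiated macrophages mostly rest outside the cycle, resident tissue macrophages can renew themselves by division, and lipopolysaccharide is known to slow the division of cultured macrophages.

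Promoters are shown for genes of the helicase, a polymerase and licensing, because E2F sites are the shared feature most often described for this group. RefSeq promoters of build GRCm38.p6, another build than the authors', were matched by symbol for 36 of the 44 genes. The 250 bases before the start were searched on both strands for the E2F words TTTCCCGC, TTTCGCGC, TTTGCCGC and TTTGGCGC, which are marked in capitals and which can overlap each other. At least 1 word was found in 10 of the 36 genes (27.8%), in 331 of 7915 tested genes with a promoter (4.18%) and in 583 of all 27025 genes with one (2.16%). The word TTTCGCGC occurred in 6 of the 36 genes, and TTTCCCGC and TTTGGCGC in 3 each. The CCAAT box, the binding word of the factor NF-Y, was found on either strand in 23 of the 36 genes (63.9%) and in 40.8% of tested genes. Mcm6 carried 3 words, the nearest ending 40 bases before the start, Mcm5 carried 2 overlapping words, and Pola1 carried 1. Cdt1 is printed as a gene with none of these words in its window. The windows of these 4 genes contain no annotated exon of the gene itself, but some other windows do. A gene with more than 1 start was counted if any of its windows held a word, as for Mcm7, Uhrf1 and Dnmt1. The Mcm7 window with the word lies wholly in an annotated exon, and that of Dnmt1 shares 166 bases with one.
Mcm5, GRCm38.p6 chr8:75109259-75109508, plus strand: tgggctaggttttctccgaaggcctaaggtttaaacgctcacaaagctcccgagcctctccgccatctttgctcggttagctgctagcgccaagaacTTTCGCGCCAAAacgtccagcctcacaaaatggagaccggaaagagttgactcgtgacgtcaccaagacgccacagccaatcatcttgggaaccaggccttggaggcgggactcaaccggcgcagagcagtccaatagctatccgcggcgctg
Mcm6, GRCm38.p6 chr1:128359706-128359955, minus strand: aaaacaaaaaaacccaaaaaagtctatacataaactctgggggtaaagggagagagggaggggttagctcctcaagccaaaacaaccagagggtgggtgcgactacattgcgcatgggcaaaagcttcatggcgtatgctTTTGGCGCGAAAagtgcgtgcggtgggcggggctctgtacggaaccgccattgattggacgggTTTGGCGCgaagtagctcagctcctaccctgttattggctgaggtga
Pola1, GRCm38.p6 chrX:93632156-93632405, minus strand: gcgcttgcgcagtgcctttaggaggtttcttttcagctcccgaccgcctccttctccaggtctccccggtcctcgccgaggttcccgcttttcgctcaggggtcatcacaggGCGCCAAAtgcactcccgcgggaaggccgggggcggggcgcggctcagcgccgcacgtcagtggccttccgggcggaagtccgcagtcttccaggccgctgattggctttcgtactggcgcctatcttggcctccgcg
Cdt1, GRCm38.p6 chr8:122567765-122568014, plus strand: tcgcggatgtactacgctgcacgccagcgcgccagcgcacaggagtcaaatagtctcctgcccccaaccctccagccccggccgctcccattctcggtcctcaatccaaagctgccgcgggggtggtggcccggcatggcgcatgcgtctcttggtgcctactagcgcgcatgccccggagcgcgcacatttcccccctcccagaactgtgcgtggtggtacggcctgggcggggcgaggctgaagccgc
Of the 33 promoter-matched genes that were called higher in EXO 9 held a word (27.3%), as did 1 of the 3 that were not called, Cdc6. The Cdc6 window shares 81 bases with an annotated exon of the gene. The window of E2f1, another uncalled gene, lies wholly in an annotated E2f1 exon, so sequence upstream of that exon was not searched. Mcm4, Gins1, Gins2, Gins4, Prim2, Pole, Rfc2 and Ccne2 had no promoter entry. A word match is a description of letters and was not tested for binding.

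The replication genes were higher in EXO than in LPS nearly throughout. Of the 44, all passed the filter on low values (4 or more libraries reaching an FPKM of 1), 40 rose, and Cdc6, Slbp, Ccne2 and E2f1 were not called (limma on log2(FPKM + 1), Benjamini-Hochberg adjusted p under 0.05 over 9812 genes). Among all genes tested, 33.7% were higher and 24.7% lower in EXO, a lean towards higher that was smaller under other scalings. The median log2 fold change, EXO minus LPS, was 0.87 for the 44 genes and 0.09 for all genes tested. No member was called lower by limma, at an adjusted or an unadjusted p under 0.05, or by voom on recovered fragments. By at least 1 on the log2 scale 14 rose, against 5.19% of all genes tested. In 37 of the 44 every EXO library lay above every LPS library, which held for 29.1% of all genes tested. In no member did every LPS library lie above every EXO library, which held for 22.1% of all genes tested. Levels below are FPKM, and values after ± are SDs over the 4 libraries of a group. In bulk RNA, a higher share of cells in S phase and more of these transcripts per cell cannot be told apart.

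**Figure D1:**
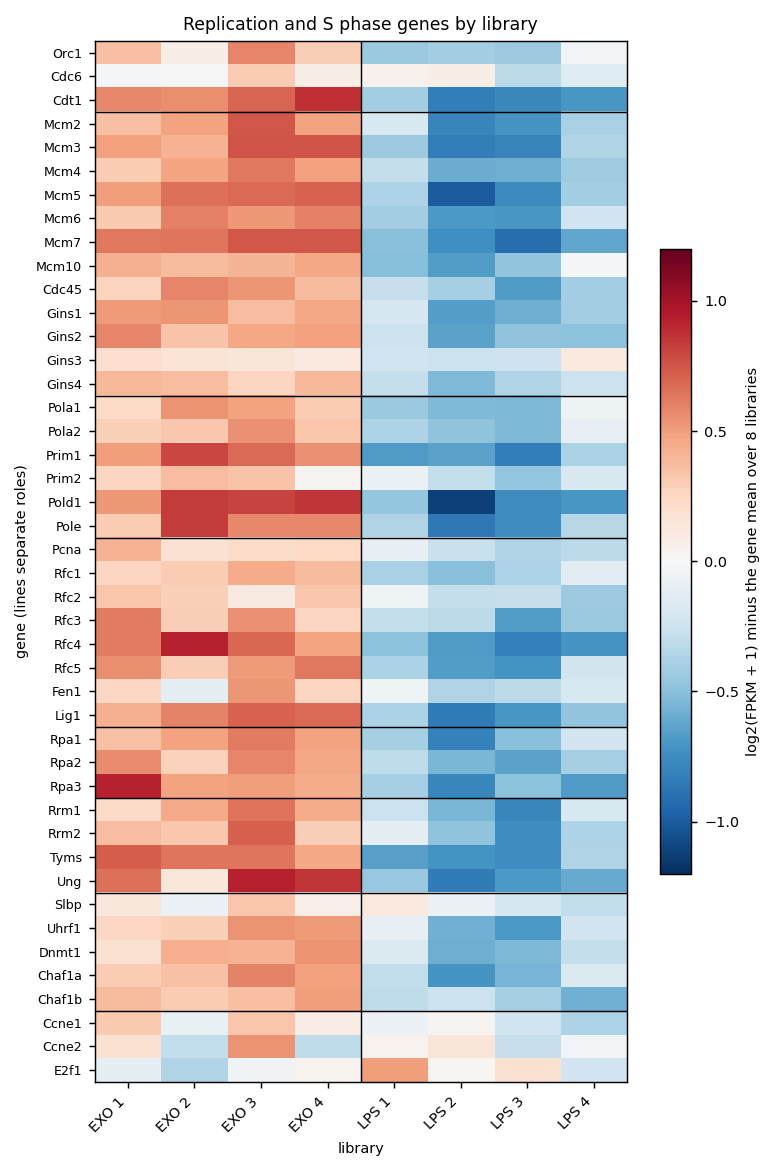
Heat map of the 44 replication genes (rows, by role) in the 8 libraries (columns), as log2(FPKM + 1) minus the gene's mean over the libraries. The 4 EXO columns are red and the 4 LPS columns blue for all but a few rows, among which Cdc6, Ccne2 and E2f1 stand out.

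Summed over the 44 genes, the level was 2079, 2013, 2159 and 2087 FPKM in EXO replicates 1 to 4 and 1298, 1074, 1048 and 1188 in LPS replicates 1 to 4. The groups did not overlap. These genes took 0.498% to 0.553% of the assigned fragments in EXO and 0.251% to 0.315% in LPS. Within LPS, replicate 1 held the highest value for 24 of the 44 genes and replicate 4 for 16, while replicate 2 held the lowest for 20 and replicate 3 for 18. Within EXO, replicate 3 held the highest value for 20 genes. The coefficient of variation between replicates had a median of 10.4% in EXO and 14.6% in LPS, and its highest value was 32.3%, for Ccne2 in EXO.

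Of the licensing factors, Cdt1 and Orc1 were called higher in EXO and Cdc6 was not. Whether they differ in response was not tested. Cdt1, which brings the Mcm helicase to origins, stood at 52.7, 52.2, 57.6 and 65.4 FPKM in EXO and 26.1, 19.3, 20.1 and 21.2 in LPS. Every EXO library lay above every LPS library, and the mean was 2.63 times higher in EXO (log2 fold change 1.36, SE 0.12, limma adjusted p = 9.44e-07). Orc1, the ATPase subunit of the origin recognition complex, was much lower in level, at 4.72, 3.73, 5.70 and 4.48 in EXO and 2.28, 2.38, 2.29 and 3.37 in LPS. It rose by 0.66 (SE 0.13, limma adjusted p = 0.000777), with LPS replicate 4 above the other LPS libraries. Cdc6, the ATPase that recruits Cdt1 and the helicase, stood at 6.48, 6.63, 8.38 and 7.03 in EXO and 6.88, 7.01, 5.10 and 5.88 in LPS. The groups overlapped, and its log2 fold change of 0.17 (95% confidence interval -0.09 to 0.44) was not called (limma adjusted p = 0.242).

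Geminin (Gmnn), the protein that binds and blocks Cdt1, was chosen after its values were seen. It averaged 34.1 ± 1.49 in EXO and 19.3 ± 1.78 in LPS and rose by 0.79 (limma adjusted p = 2.79e-05). The level of Cdt1 divided by that of Gmnn was 1.5, 1.47, 1.71 and 2.03 in EXO and 1.22, 0.989, 1.05 and 1.24 in LPS. The groups did not overlap in this ratio, which is given as a description because both genes' fold changes were known when it was chosen.

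All 6 subunits of the Mcm2 to Mcm7 ring rose, by 0.95 to 1.38 on the log2 scale, and no subunit overlapped between the groups. Their summed level was 378, 412, 444 and 436 FPKM in EXO and 212, 159.7, 162 and 209 in LPS. Mcm7 stood at 80.0, 80.8, 86.7 and 86.5 in EXO and 36.0, 30.4, 26.9 and 33.0 in LPS, a log2 fold change of 1.38 (SE 0.11, limma adjusted p = 3.54e-07). Mcm5 stood at 65.6, 73.2, 74.2 and 75.8 in EXO and 35.4, 22.4, 26.6 and 34.3 in LPS, a log2 fold change of 1.28 (SE 0.14). For both genes LPS replicates 1 and 4 were the highest LPS libraries, and every EXO library lay above them. Mcm3 averaged 65.4 ± 8.02 and 27.9 ± 4.84, Mcm2 57.1 ± 6.60 and 27.6 ± 5.67, Mcm6 95.1 ± 8.89 and 46.7 ± 7.52, and Mcm4 44.0 ± 4.20 and 22.3 ± 2.41. Although the ring holds its subunits in equal numbers, mean FPKM differed 2.16-fold in EXO and 2.09-fold in LPS between the highest, Mcm6, and the lowest, Mcm4.

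The activators of the helicase rose as well. Cdc45, which joins the ring to form the active helicase, stood at 18.8, 23.8, 22.9 and 20.5 in EXO and 12.6, 11.5, 9.29 and 11.4 in LPS (log2 fold change 0.88, limma adjusted p = 3.17e-05). Mcm10, an initiation factor outside the ring, stood at 11.1, 10.7, 10.9 and 11.4 in EXO and 5.31, 4.65, 5.50 and 7.91 in LPS. Its coefficient of variation between replicates was 2.58% in EXO and 24.4% in LPS, where replicate 4 was the highest. The GINS subunits Gins1, Gins2 and Gins4 averaged 40.2 ± 2.05, 51.2 ± 3.71 and 40.4 ± 1.87 in EXO and 20.7 ± 3.10, 26.2 ± 3.05 and 24.3 ± 2.06 in LPS, with log2 fold changes from 0.71 to 0.94. Gins3, the remaining subunit, was far lower, at 3.93, 3.79, 3.72 and 3.64 in EXO and 2.63, 2.56, 2.59 and 3.64 in LPS. LPS replicate 4 reached the EXO range, and the call (log2 fold change 0.32, limma adjusted p = 0.0283) was lost without EXO replicate 1 (0.0658) or any of LPS replicates 1 to 3 (0.0684 to 0.0837) and by voom (0.0923).

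**Figure D2:**
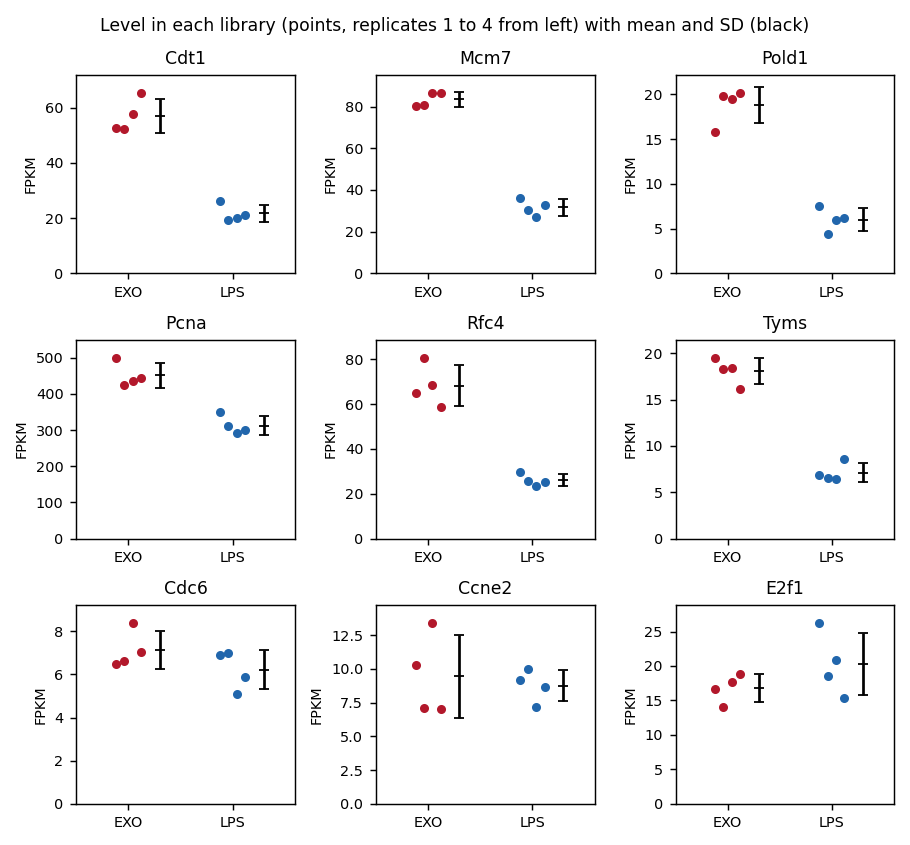
FPKM of 9 replication genes in each library (points, replicates 1 to 4 from left to right) with the group mean and SD (black bar), on axes that start at 0. Cdt1, Mcm7, Pold1, Pcna, Rfc4 and Tyms separate the groups, while Cdc6, Ccne2 and E2f1 overlap.

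Among polymerase genes, Pold1 had the highest log2 fold change of all 44 members. Pold1, the catalytic subunit of the lagging-strand polymerase delta, stood at 15.8, 19.8, 19.5 and 20.2 FPKM in EXO and 7.48, 4.38, 5.93 and 6.20 in LPS. Its mean was 3.14 times higher in EXO, with a log2 fold change of 1.52 (SE 0.14, limma adjusted p = 1.1e-06). Pole, the catalytic subunit of the leading-strand polymerase epsilon, stood at 7.47, 11.2, 9.24 and 9.24 in EXO and 4.34, 2.79, 3.09 and 4.47 in LPS, a log2 fold change of 1.15 (SE 0.15). For both catalytic subunits LPS replicate 2 was the lowest library and EXO replicate 1 the lowest EXO library, above every LPS library. Primase makes the RNA primers on which polymerase alpha starts. Its catalytic subunit Prim1 stood at 41.9, 51.9, 47.4 and 43.2 in EXO and 17.9, 18.4, 16.1 and 22.2 in LPS (log2 fold change 1.27, limma adjusted p = 1.55e-06). Its large subunit Prim2 averaged 13.8 ± 1.52 and 9.43 ± 1.15 and rose by less (0.50, limma adjusted p = 0.00264). The polymerase alpha subunits Pola1 and Pola2 averaged 12.7 ± 1.33 and 13.7 ± 1.23 in EXO and 6.99 ± 1.34 and 7.82 ± 1.26 in LPS, with log2 fold changes of 0.78 and 0.75.

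Pcna, the sliding clamp, had the highest level of the members and a fold change below the median of the members. It stood at 499.6, 424, 436 and 444 FPKM in EXO and 349, 310.1, 291 and 299.5 in LPS, 1.44 times higher by means (log2 fold change 0.53, SE 0.11, limma adjusted p = 0.000819). The groups did not overlap. Replication factor C loads the clamp onto DNA. Of its small subunits, Rfc4 stood at 64.9, 80.7, 68.7 and 58.8 in EXO and 29.6, 25.8, 23.4 and 25.4 in LPS, a log2 fold change of 1.35 (limma adjusted p = 8.65e-07). Rfc5, Rfc3 and Rfc2 rose by 1.0, 0.86 and 0.53, and the large subunit Rfc1 by 0.70. Lig1, the ligase that joins lagging-strand fragments, stood at 32.7, 37.1, 40.0 and 39.2 in EXO and 18.3, 13.1, 14.4 and 17.1 in LPS, a log2 fold change of 1.2 (limma adjusted p = 2.93e-06). Fen1, the nuclease that trims the flaps before ligation, stood at 31.3, 24.1, 38.3 and 31.5 in EXO and 25.3, 20.3, 20.9 and 22.8 in LPS. EXO replicate 2 lay below LPS replicate 1, and the log2 fold change was 0.46 (SE 0.14, limma adjusted p = 0.0107).

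Replication protein A coats the single strands exposed at forks, and all 3 subunits rose without overlap. Rpa3, the smallest, stood at 123, 90.4, 91.3 and 87.7 in EXO and 48.5, 36.9, 45.3 and 39.7 in LPS (log2 fold change 1.18, limma adjusted p = 5.79e-06), with EXO replicate 1 above the other EXO libraries. Rpa1 averaged 48.4 ± 3.81 and 24.4 ± 4.21, and Rpa2 43.7 ± 4.20 and 22.2 ± 2.43, with log2 fold changes of 0.97 and 0.95.

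Genes that supply or check nucleotides rose together, 4 of 4. Tyms, thymidylate synthase, stood at 19.5, 18.3, 18.4 and 16.1 in EXO and 6.87, 6.53, 6.39 and 8.64 in LPS, 2.54 times higher by means (log2 fold change 1.24, SE 0.12, limma adjusted p = 1.38e-06). Rrm1 and Rrm2, the large and small subunits of ribonucleotide reductase, averaged 93.3 ± 11.1 and 60.9 ± 9.03 in EXO and 50.3 ± 9.55 and 33.5 ± 6.32 in LPS. Their log2 fold changes were 0.89 and 0.85. Ung, which cuts uracil out of DNA, stood at 9.50, 6.28, 11.7 and 11.0 in EXO and 3.85, 2.70, 3.10 and 3.36 in LPS, a log2 fold change of 1.30 (SE 0.16, limma adjusted p = 1.48e-05). Its EXO libraries were uneven, with replicate 2 nearest to LPS but still above it.

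Of the chromatin genes 4 of 5 rose. Chaf1a and Chaf1b, subunits of the assembly factor CAF-1 that places histones behind the fork, averaged 20.8 ± 2.0 and 29.7 ± 1.78 in EXO and 11.1 ± 2.0 and 17.0 ± 1.68 in LPS. Uhrf1, which reads hemimethylated DNA, averaged 36.8 ± 3.97 and 21 ± 4.25, and Dnmt1, the maintenance methyltransferase it recruits, 41.4 ± 4.28 and 23.6 ± 3.43. The log2 fold changes of these genes lay between 0.77 and 0.87. Slbp, which binds the stem-loop of histone mRNAs, stood at 41.2, 35.7, 47.5 and 39.2 in EXO and 40.8, 35.6, 32.2 and 30.3 in LPS. The groups overlapped and it was not called (log2 fold change 0.23, 95% confidence interval -0.04 to 0.50, limma adjusted p = 0.128).

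Of the 3 regulators of entry into S phase, Ccne1 alone was called. E2f1, an activating E2F factor, stood at 16.7, 14.0, 17.7 and 18.8 FPKM in EXO and 26.2, 18.6, 20.9 and 15.4 in LPS. It was the single member whose mean was lower in EXO, by -0.24 on the log2 scale (95% confidence interval -0.56 to 0.08, limma adjusted p = 0.187), and it was called lower when LPS replicate 4, its lowest LPS library, was left out (log2 fold change -0.35, limma adjusted p = 0.0272). Ccne1, cyclin E1, which activates Cdk2, stood at 14.1, 10.4, 14.4 and 11.9 in EXO and 10.6, 11.4, 9.33 and 8.39 in LPS. Its groups overlapped, and the call (log2 fold change 0.32, limma adjusted p = 0.0468) did not hold when replicate 1, 3 or 4 of either group was left out (0.0523 to 0.131), under rescaling (0.134), by voom (0.150), without a filter on low values (0.0877) and with the replicate number as a block (0.0615). Ccne2, cyclin E2, stood at 10.3, 7.08, 13.4 and 7.0 in EXO and 9.18, 10, 7.21 and 8.68 in LPS, where EXO replicates 1 and 3 were high and 2 and 4 low. Its log2 fold change was 0.060 (95% confidence interval -0.32 to 0.44, limma adjusted p = 0.787). Whether these regulators differ in response from the helicase and polymerase genes was not tested.

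**Figure D3:**
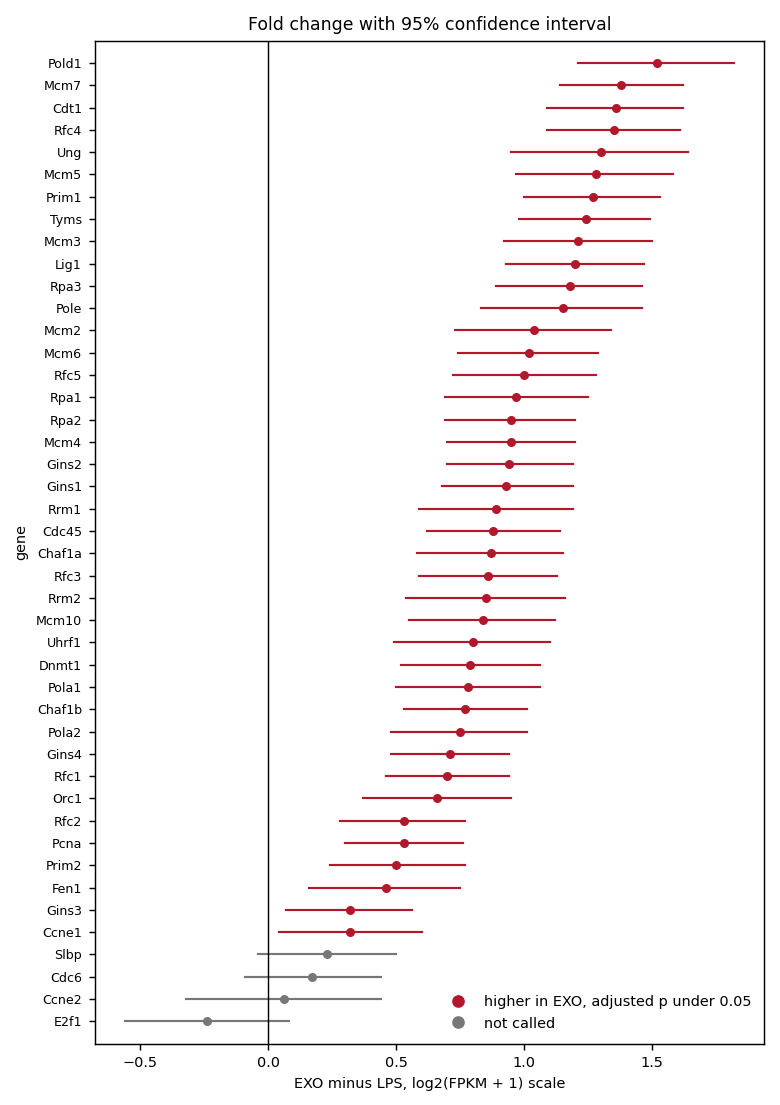
Difference of EXO from LPS in mean log2(FPKM + 1) for each of the 44 genes (points) with its 95% confidence interval (lines), in order of size. Pold1 at 1.52 stands at the top and E2f1 at -0.24 at the bottom, and the intervals of Slbp, Cdc6, Ccne2 and E2f1 include 0.

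Other genes of the same pathway moved the same way in most cases. They come from lists of textbook members, also chosen with earlier results of these data known. Of 18 further genes of origin licensing and firing, 13 rose and 5 were not called (median log2 fold change 0.65). Orc6, a subunit of the origin recognition complex, averaged 54.3 ± 4.72 in EXO and 26.5 ± 2.53 in LPS, and Cdc7, the kinase that fires origins, 4.93 ± 0.686 and 2.30 ± 0.178. The uncalled genes included Orc2, Orc3 and Orc4, chosen after their values were seen, with log2 fold changes of 0.45, 0.21 and 0.29. Orc2 stood at 27.0 to 42.3 in EXO and at 19.0, 20.7, 21.5 and 40.2 in LPS replicates 1 to 4. Orc5, also chosen after its values were seen, was called higher, though its groups overlapped (log2 fold change 0.35, limma adjusted p = 0.0226). Of 20 further polymerase and fork genes, 16 rose and 4 were not called (median 0.60). Pold2, an accessory subunit of polymerase delta, averaged 70.7 ± 4.57 and 20.2 ± 5.32 (log2 fold change 1.79, limma adjusted p = 4.02e-07), and Rnaseh2a, the catalytic subunit of ribonuclease H2, 30.7 ± 1.2 and 15.2 ± 1.33. All 15 further chromatin replication genes rose (median 0.69), Nasp, a histone chaperone, from 18.2 ± 2.40 in LPS to 52.7 ± 6.22 in EXO.

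Nucleotide supply outside the members moved in both directions. Of 15 genes 11 rose, 2 fell and 2 were not called (median 0.86). Dut, which removes dUTP, averaged 66.1 ± 8.96 in EXO and 22.8 ± 3.22 in LPS. Samhd1, which breaks down deoxynucleotides, fell. It stood at 39.9, 40.1, 40.4 and 40.4 FPKM in EXO and 97.5, 111, 104 and 109 in LPS, without overlap (log2 fold change -1.36, SE 0.10, limma adjusted p = 1.38e-07). The other gene that fell was Dck, deoxycytidine kinase of the salvage pathway, chosen after its values were seen, at 15.1 ± 0.797 and 31.2 ± 1.93.

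Of 23 further tested G1/S regulators, 11 rose, 3 fell and 9 were not called (median 0.45). Cdkn1a (p21), an inhibitor of cyclin-dependent kinases and of PCNA, stood at 32.8, 32.9, 30.5 and 33.7 in EXO and 76.3, 62.4, 72.1 and 106 in LPS (log2 fold change -1.23, limma adjusted p = 6.8e-06). Its LPS libraries all lay above the EXO libraries. The others that fell, chosen after their values were seen, were the inhibitor Cdkn1b (p27), at 7.86 ± 1.44 and 13.5 ± 2.06, and the kinase Cdk6, at 4.73 ± 0.207 and 7.87 ± 1.45. Ccna2, cyclin A2, averaged 73.0 ± 8.41 in EXO and 32.7 ± 6.98 in LPS, and E2f4, a mostly repressive E2F, 53.1 ± 6.97 and 26.3 ± 4.42. Also chosen after their values were seen, Rb1 and Rbl1, RB family genes, were not called, with log2 fold changes of -0.23 and 0.004. Of 16 replication checkpoint genes 13 rose and 3 were not called (median 0.87), with Timeless, a fork protection factor, at 7.07 ± 0.874 and 2.69 ± 0.604. All 20 mitosis genes rose (median 1.16), among them Plk1, a mitotic kinase, at 52.9 ± 7.48 and 14.1 ± 4.43.

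**Figure D4:**
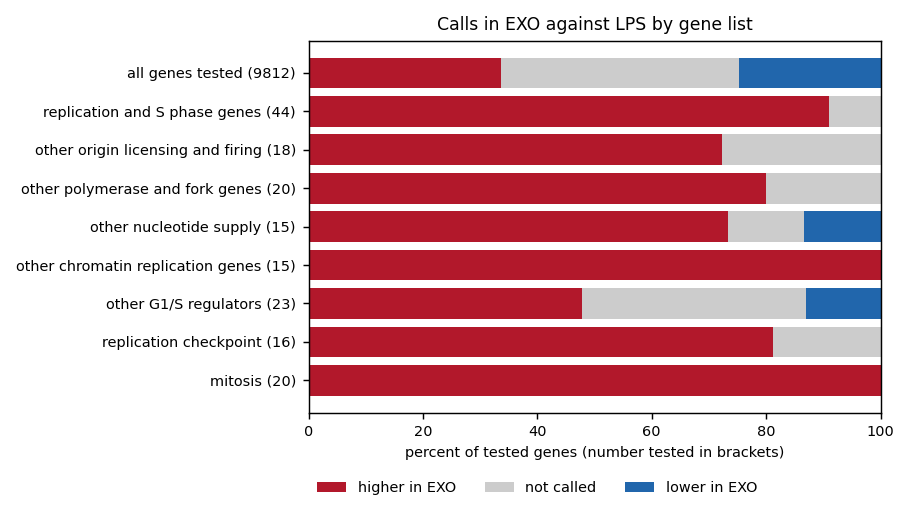
Share of tested genes called higher (red), lower (blue) or not called (grey) in EXO, for all genes tested, the 44 replication genes and 7 lists of related genes, with the number tested in brackets. Higher calls make up 33.7% of all genes and the whole of the chromatin replication and mitosis lists, and lower calls appear in the nucleotide supply and G1/S lists.

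Macrophage markers moved the other way beside these changes. Of 14 tested, 13 fell and 1 was not called, and the summed level of the 15 markers was 6312 to 7854 FPKM in EXO and 11300 to 23150 in LPS. Lyz2, the macrophage lysozyme, averaged 3357 ± 523 in EXO and 9969 ± 3819 in LPS. The analysed fibroblast, stromal and general epithelial markers were near 0. The 5 analysed fibroblast and stromal markers summed to 0.399 to 0.605 FPKM in EXO and 0.444 to 0.632 in LPS, and the 3 general epithelial markers to 0.0965 to 0.281 and 0.185 to 0.346. Egfl7 was the only 1 of 6 endothelial markers with a mean of at least 1 FPKM, at 12.9 ± 1.96 in EXO and 3.03 ± 0.75 in LPS, with the summed list at 11.4 to 15.7 and 2.52 to 4.31. The 6 neutrophil, 5 T and NK cell, 2 B cell and 4 erythroid markers summed to at most 11.6, 10.3, 0.679 and 0.776 FPKM in any library. Of 5 alveolar macrophage markers Fabp4 alone reached a mean of 1 FPKM over all 8 libraries, and 3 of 4 alveolar type 2 markers did. Marco, another alveolar macrophage marker, averaged 0.554 ± 0.1 in EXO and 1.23 ± 0.733 in LPS. The summed alveolar type 2 list stood at 41.4 to 50.9 FPKM in EXO and 62.0 to 95.9 in LPS. Napsa and Abca3 fell, at 32.5 ± 3.05 and 5.56 ± 1.12 in EXO and 57.5 ± 12.1 and 12.7 ± 2.34 in LPS. Etv5, chosen after its values were seen, rose, at 8.20 ± 1.86 and 3.38 ± 0.970 (log2 fold change 1.08, limma adjusted p = 0.000152). The part of the cell mixture in the level of the replication genes was not tested.

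Some levels are uncertain because no source used here gives the strand setting of the counting. In the annotation of GRCm38, exons of 1 antisense gene cover 78.8% of the exon bases of Fen1. A protein-coding gene on the opposite strand shares 5.37% of them. For Gins2 and Chaf1a, 1 gene on the opposite strand covers 70.7% and 33.6%. No single gene covers more than 19.1% of any other member.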

How the data were processed

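RNA sequencing values of 4 EXO and 4 LPS libraries were analysed, grouped by their titles. The authors deposited 1 table whose header names no unit, and the values were read as FPKM. The values of a gene are whole multiples of the worth of 1 fragment in that library, which varied inversely with library depth. The values of a library did not sum to a shared total, and the sums ran from 544225 to 621034. Per the submitters' processing notes, the tools and builds named are HISAT2, a spliced aligner, and mouse GRCm39. Not given in the sources used here are the counting tool, its strand setting and the annotation. Whole fragments were recovered for all 17645 genes above 0 in at least 1 library (tolerance 0.01), and served for depth and for voom. Values were taken as log2(FPKM + 1), which understates the change of low genes. The 9812 genes that reached an FPKM of 1 in 4 or more libraries entered a two-sided comparison of EXO against LPS, fitted with limma 3.58.1 (R 4.3.3, trended and robust empirical Bayes) and Benjamini-Hochberg adjusted. The procedure was checked on simulated data with far fewer changed genes than were called here, as many up as down. That check does not cover so broad and uneven a difference. The genes, lists and tests were chosen with earlier results of these data known. Any member may be named, with at most 3 genes of smallest p per pathway list and the 2 highest per marker list, and others are said to be chosen after their values were seen. Alternatives were another pseudocount, other filters, rescaling, voom, a block for the replicate number and fits without single libraries. An edgeR fit was planned and not run, and voom was the test run on the recovered fragments. Some genes of the lists are not reported here.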

Additional observations from a re-analysis of the deposited data

Results flagged for a closer look

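In 7 of the 88 groups of 4 libraries (44 genes in EXO and in LPS), 1 library stood apart from the other 3 by more than Dixon's 95% critical value, a gap set against the whole range of the group, which chance gives in about 1 group in 20. LPS replicate 4 was high for 3 genes, namely Orc1 at 3.37 FPKM (next highest 2.38), Gins3 at 3.64 (next 2.63) and Pola1 at 8.98 (next 6.63). EXO replicate 3 was high for Pola2 at 15.5 (next 13.3) and for Rrm2 at 74.3 (next 58.1). EXO replicate 1 was high for Rpa3 at 123 (next 91.3) and low for Pold1 at 15.8 (next 19.5). The cause of these values was not tested.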

How the results depend on the processing

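Of the 40 replication genes called higher, 38 kept the call and its sign under each of the 15 alternatives that tested them, and the exceptions were Gins3 and Ccne1. Orc1, among the 38, and Gins3 were not tested at a mean FPKM of at least 5. The number called higher was 40 with a pseudocount of 0.1 and without EXO replicate 2 and LPS replicate 4 together, 39 under median-of-ratios rescaling and without a filter on low values, and 38 by voom and with a mean FPKM of at least 5, which leaves 42 of the 44 genes. Leaving out 1 library gave 38 to 40. The number called lower was 0 to 1 when 1 library was left out, the 1 being E2f1 without LPS replicate 4, and the median log2 fold change was 0.81 to 0.94. Under rescaling that median was 0.80, and over all genes rescaling shifted fold changes by a median of -0.067. Over all genes, 3310 were higher and 2422 lower, against 3000 and 2816 under rescaling and 2983 and 2879 by voom, so that higher calls made up 57.7%, 51.6% and 50.9% of calls. The sign of Ccne2 turned under rescaling (-0.008), by voom (-0.019) and without EXO replicate 3 or LPS replicate 3 (-0.11 and -0.021), and the cause was not tested. The labels do not say whether the replicate numbers pair the libraries, and 4 libraries per group are too few to settle it. Deviations from the group means correlated at 0.045, 0.17, -0.292 and -0.109 for numbers 1 to 4, and the replicate block gave 39 genes higher and 0 lower. Levels near 3 FPKM, such as Gins3 at 240 to 359 fragments, limit what can be told apart. The planned edgeR fit was not run.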
